A study of Komagataella phaffii with 9 samples.

Results

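Transcripts of 4 genes that make or take up thiamine (vitamin B1) were followed in the methylotrophic yeast *Komagataella phaffii* (also known as *Pichia pastoris*), in strains that carry more or less of the Gal4-like transcription factor gene *CRA1*. The genes were *THI4* (PP7435_Chr3-0552), *THI11* (PP7435_Chr4-0952), *THI20* (PP7435_Chr3-0342) and *THI7* (PP7435_Chr3-0551). They were looked up by identifier after results for them in these same libraries were known, and all 4 were found among the 5344 sequences quantified. Their names come from the study's own list of genes, and 0 of the 5344 identifiers were found in the RefSeq table of another strain, GS115.

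The study sequenced RNA to examine how Cra1 acts on the regulation of glycolysis. RNA was sequenced from 9 cultures, 3 for each of 3 strains derived from CBS7435: a *CRA1* overexpression strain, a *Δcra1* strain and a control strain. All 3 strains carried an eGFP reporter gene behind the promoter of the glyceraldehyde-3-phosphate dehydrogenase gene, the control strain with *CRA1* otherwise untouched. A single transformant represented each strain, so that p-values measure the spread between cultures and not between independently made strains. The promoter behind the additional *CRA1* copy is not given in the sources used here. Cells were pregrown for 24 to 26 h at 25 °C in rich medium with 25 µg mL-1 Zeocin, washed, and sampled in the exponential phase in 20 mL of mineral medium with 5 g L-1 glucose. Biotin is named among the components of that medium and thiamine is not.

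Thiamine is assembled from a thiazole ring and a pyrimidine ring, which are made separately and then joined. The active form, thiamine diphosphate, is the cofactor of enzymes that cleave bonds next to a keto group, among them pyruvate decarboxylase on the way to ethanol, pyruvate dehydrogenase on the way to the TCA cycle, and transketolase in the pentose phosphate pathway. The roles of the 4 genes are known from *Saccharomyces cerevisiae*. There, Thi4 makes the thiazole ring and proteins of the Thi11 family make the pyrimidine ring, and both are single-turnover enzymes that use up part of their own chain. Thi20 phosphorylates the pyrimidine ring before the joining step, and Thi7 carries thiamine across the plasma membrane. Genes of this pathway are known in that yeast for rising together when thiamine is scarce.

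The coding lengths in the tables were 1038 bases for *THI4*, 1023 for *THI11*, 1662 for *THI20* and 1677 for *THI7*. *THI7* and *THI4* have neighbouring identifiers on chromosome 3, *THI20* lies elsewhere in the numbering of chromosome 3, and *THI11* is on chromosome 4. The estimated counts of all 4 genes were exact whole numbers in the 9 libraries, whereas 32 to 46 sequences per library had fractional counts, which arise where reads are shared between similar sequences. Whether counting used the strand of the reads is not given in the sources used here, so a gene and an antisense transcript over it could not be told apart.

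The libraries were shallow, with totals of 106345 to 223824 counts, and the control libraries were the smallest. Where a count is 0, the upper limit of its share (3 counts) is 0.00134% of the deepest library and 0.00282% of the shallowest, a limit that covers counting error only. *CRA1* itself had 810, 95 and 316 counts in overexpression replicates 1, 2 and 3, 0 counts in each *Δcra1* library and 11 counts in each control library. Its level was at least 8.04-fold lower in the *Δcra1* strain than in the control strain, with each *Δcra1* library set to 3 counts, which fits the labels. The overexpression libraries stood apart from each other. A principal component was computed from how 1301 genes deviate within strains, and its first axis took up 60.5% of that variance. On it they scored 0.78, −0.28 and 0.16. The *Δcra1* libraries scored −0.11, 0.11 and 0.15, and the control libraries −0.20, −0.34 and −0.28. The share of counts on mitochondrially encoded sequences had the same order in the overexpression libraries, at 0.446%, 0.0358% and 0.201%. It was 0.130% to 0.282% in the *Δcra1* libraries and 0.0301% to 0.0572% in the control libraries. What part this component or this share has in the results was not tested beyond the fit with the component as a covariate that is given with them.

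Levels are given in TPM, a share of the library corrected for transcript length and scaled to the same sum in every library. This allows different genes to be set side by side. *THI4*, the thiazole gene, had 2383, 817 and 1387 TPM in overexpression replicates 1, 2 and 3. It had 127, 131 and 199.6 TPM in the *Δcra1* libraries and 483, 338 and 331 TPM in the control libraries. The 3 strains did not overlap, with the overexpression strain highest and the *Δcra1* strain lowest. *THI4* was among the most abundant transcripts of the overexpression strain, with a percentile of 96.9 to 99.2 among all sequences, against 74.2 to 80.1 in the *Δcra1* strain and 88.4 to 92.5 in the control strain.

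*THI11*, the pyrimidine gene, had 1816, 567 and 992 TPM in the overexpression libraries, 75.5, 93.8 and 189.6 TPM in the *Δcra1* libraries, and 480.4, 305 and 397 TPM in the control libraries. Again no library of one strain reached the range of another. The gap between overexpression replicate 2 and control replicate 1 was narrow, and the overexpression libraries differed among themselves by 3.20-fold.

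*THI20*, the kinase gene, was a much rarer transcript. It had 303, 137 and 246 TPM in the overexpression libraries, 11.2, 14.1 and 22.5 TPM in the *Δcra1* libraries, and 57.4, 46.1 and 71.0 TPM in the control libraries. The *Δcra1* values rest on only 6, 8 and 12 counts and the control values on 17, 15 and 20, whereas overexpression libraries had 183, 37 and 86. The strains did not overlap.

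*THI7*, the uptake gene, had 199.98, 213 and 139 TPM in the overexpression libraries. It had 18.4, 26.2 and 26.0 TPM in the *Δcra1* libraries and 86.8, 115 and 123 TPM in the control libraries. The *Δcra1* libraries were far below the others, and overexpression replicate 3 lay just above the highest control library. On TMM-scaled CPM, counts relative to a library total adjusted for composition and the scale closest to the test, the overexpression libraries had 509, 552 and 347 CPM and the control libraries 255, 382 and 351 CPM, so that these 2 strains overlapped.

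**Figure D1:**
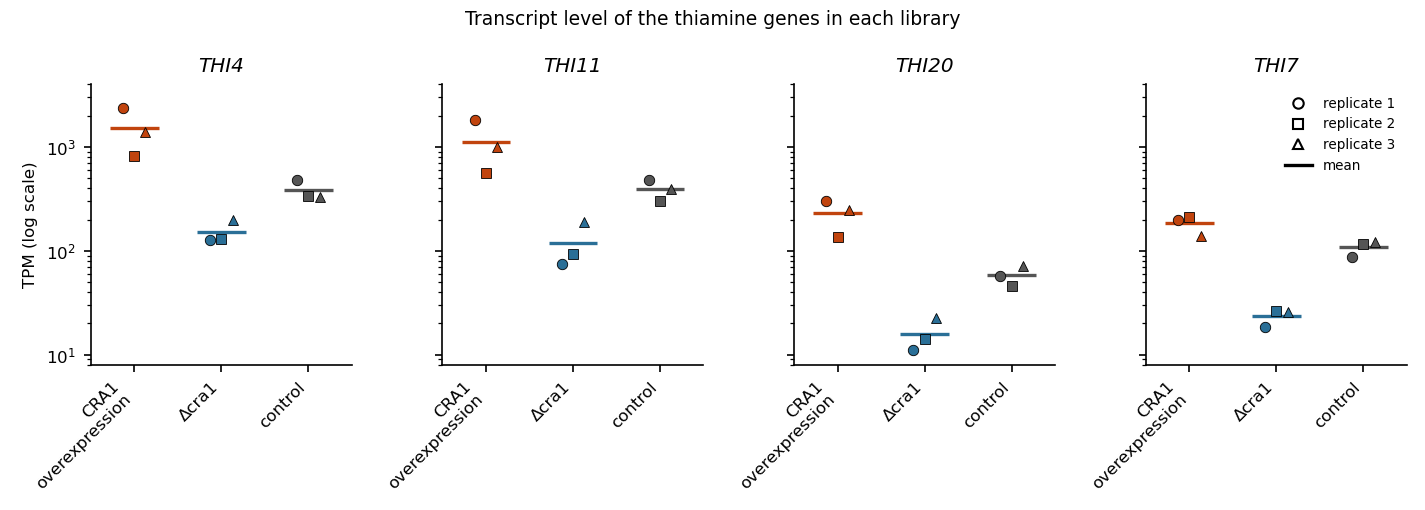
Transcript levels of *THI4*, *THI11*, *THI20* and *THI7* in each of the 9 libraries, in TPM on a log axis. Each point is 1 culture, its shape the replicate number, and the horizontal line is the mean of 3. Every overexpression library lies above every control library and every *Δcra1* library below, with the smallest gap for *THI7* (139 TPM in overexpression replicate 3 and 123 TPM in control replicate 3).

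The order of the 3 strains was thus the same for each gene in TPM, while the order of the genes differed between strains. In the overexpression strain *THI4* averaged 1529 ± 792 TPM and *THI11* 1125 ± 635 TPM (SD, n = 3), with ranges that overlapped, followed by *THI20* at 229 ± 84.3 TPM and *THI7* at 184 ± 39.7 TPM, which also overlapped. In the *Δcra1* strain *THI4* averaged 153 ± 40.9 TPM, *THI11* 119.6 ± 61.2 TPM, *THI7* 23.5 ± 4.43 TPM and *THI20* 15.9 ± 5.90 TPM, where *THI4* overlapped *THI11* and *THI7* overlapped *THI20*. In the control strain *THI11* at 394 ± 87.9 TPM and *THI4* at 384 ± 86.0 TPM could not be told apart, *THI7* was next at 108 ± 19.0 TPM, and *THI20* was lowest at 58.1 ± 12.5 TPM without reaching the *THI7* range. The 4 genes together held 0.764%, 0.262% and 0.415% of the counts in the overexpression libraries, 0.0350% to 0.0608% in the *Δcra1* libraries and 0.153% to 0.180% in the control libraries.

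The overexpression libraries shared an order that *THI7* did not follow. *CRA1*, *THI4*, *THI11* and *THI20* were each highest in replicate 1, intermediate in replicate 3 and lowest in replicate 2. This order was not particular to these genes. The component score had it, and so had the library totals, at 213700, 114609 and 139067 counts in replicates 1, 2 and 3. Of other genes given below, *PDC1*, *TDH3* and *SNO1* had it in TPM, whereas *ARO10-2*, *BIO2* and *PRE8* did not. Whether the thiamine genes follow the level of *CRA1* between these libraries was not tested. The highest library exceeded the lowest by 2.92-fold for *THI4*, 3.20-fold for *THI11* and 2.21-fold for *THI20*. *THI7* was highest in replicate 2 and varied by 1.54-fold.

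All 4 thiamine genes were lower in the *Δcra1* strain than in the control strain, by 2.92-fold for *THI4*, 3.82-fold for *THI11*, 4.09-fold for *THI20* and 5.20-fold for *THI7*. A call required an edgeR quasi-likelihood p under 0.05 after adjustment (Benjamini-Hochberg, all genes tested) and a log2 fold change of at least 1 in size. By this rule 4 of 4 thiamine genes were called lower, and so were 8.4% of the 2392 genes tested, with 13.2% called higher. Since the 4 genes were chosen with results of these libraries known, their counts of calls in all 3 comparisons are a description and no independent evidence of a direction. In bulk cultures a lower level in every cell and expression in fewer cells cannot be told apart.

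The log2 fold change between the *Δcra1* and control strains was −1.55 for *THI4* (SE 0.21, edgeR adjusted p = 3.7e-07) and −1.93 for *THI11* (SE 0.24, edgeR adjusted p = 8.1e-08). It was −2.03 for *THI20* (SE 0.38, edgeR adjusted p = 6.4e-05) and −2.38 for *THI7* (SE 0.31, edgeR adjusted p = 2.3e-07). *THI7*, the uptake gene, ranked lowest of the 4, at position 39 from the bottom of the 2392 genes, and *THI4* highest at position 84. Whether the falls of the genes differ from each other was tested only for *THI7* and *THI4*, as a ratio within each library. In each of the 4 genes every *Δcra1* library was lower than every control library, as was so for 27.7% of all genes tested. The median log2 fold change was −1.98 over the 4 genes and 0.01 over all genes tested.

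In the overexpression strain, calls covered only part of the 4 genes. *THI4* was 4.53-fold and *THI20* 4.46-fold higher than in the control strain, and both were called. *THI11* and *THI7* had fitted ratios of 3.29 and 1.82 and were not called. Thus 2 of 4 genes were called higher, against 7.15% of the 1986 genes tested, and 0.806% of all genes were called lower.

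The log2 fold change between the overexpression and control strains was 2.18 for *THI4* (SE 0.48, edgeR adjusted p = 0.028) and 2.16 for *THI20* (SE 0.43, edgeR adjusted p = 0.018). It was 1.72 for *THI11* (SE 0.50, edgeR adjusted p = 0.060) and 0.86 for *THI7* (SE 0.30, edgeR adjusted p = 0.093). All overexpression libraries were higher than all control libraries in CPM for *THI4*, *THI11* and *THI20*, as for 11.6% of all genes tested. *THI4* ranked 87, *THI20* 92, *THI11* 165 and *THI7* 420 among the 1986 log2 fold changes. The median over the 4 genes was 1.94, and over all genes tested 0.03.

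These calls depended on single libraries. Without overexpression replicate 2, *THI11* was called at a log2 fold change of 2.00, *THI4* was at 2.45 and *THI20* at 2.40. Without overexpression replicate 1 they were at 0.91 for *THI11*, 1.44 for *THI4* and 1.65 for *THI20*, the last 2 still called. Without any single control library, or without overexpression replicate 3, 0 of the 4 genes were called in edgeR, although all 4 log2 fold changes stayed positive and those of *THI4* and *THI20* had unadjusted p of at most 0.0070. Their adjusted p then ranged up to 0.125 for *THI4* and 0.10 for *THI20*. Calls over all genes fell in the same fits, so the loss was not particular to the thiamine genes. Without control replicates 1, 2 and 3, 58 of 2299, 40 of 2292 and 56 of 2301 genes tested were called higher. Without overexpression replicate 3 it was 75 of 2111, against 142 of 1986 with all 6 libraries. With the component score as a covariate, the log2 fold change was 1.21 for *THI20*, which stayed called, 0.93 for *THI4*, 0.53 for *THI7* and 0.37 for *THI11*. The score also differed between strains, so that this covariate takes up part of the strain difference.

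**Figure D2:**
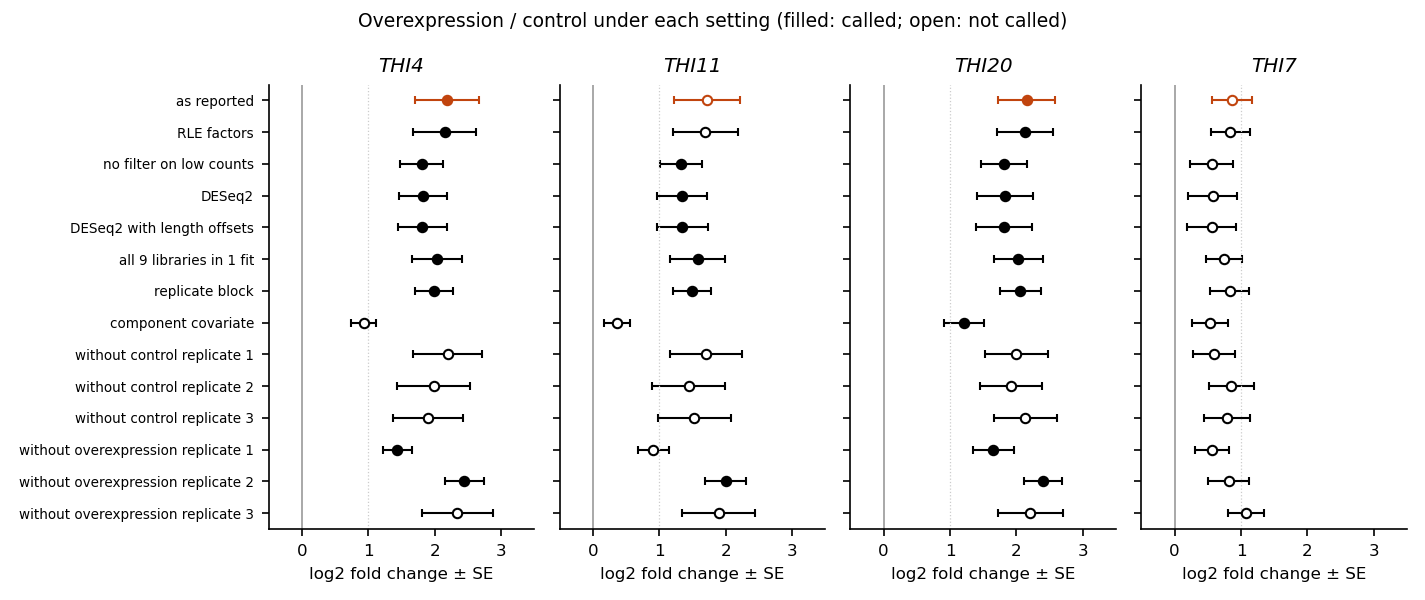
Log2 fold change of the 4 thiamine genes between the overexpression and control strains under each analysis setting. Points are fitted values with their standard errors, filled where the gene was called and open where it was not. *THI4* and *THI20* lose their call without any 1 control library and without overexpression replicate 3, and all 4 genes keep a positive value, the lowest being 0.37 for *THI11* with the component covariate.

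Set directly against each other, the overexpression and *Δcra1* strains differed in all 4 genes, by 11.3-fold for *THI4*, 10.7-fold for *THI11*, 15.8-fold for *THI20* and 8.36-fold for *THI7*. All 4 were called higher in the overexpression strain, against 9.22% of the 3071 genes tested, with 5.63% called lower. The log2 fold change was 3.49 for *THI4* (SE 0.41, edgeR adjusted p = 9.1e-05), 3.42 for *THI11* (SE 0.46, edgeR adjusted p = 0.00026), 3.98 for *THI20* (SE 0.41, edgeR adjusted p = 3.5e-05) and 3.06 for *THI7* (SE 0.32, edgeR adjusted p = 4.6e-05). *THI20* ranked 38 and *THI7* 74 from the top. In all 4 genes every overexpression library was higher than every *Δcra1* library, as for 14.8% of all genes tested. The median log2 fold change was 3.46 over the 4 genes and 0.08 over all genes. Each strain enters 2 of the 3 comparisons, so these values are not independent of those above.

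The uptake gene and its neighbour by identifier, the thiazole gene, were also set against each other within each library, which does not depend on scaling between libraries. The TPM of *THI7* relative to *THI4* was 0.0839, 0.261 and 0.09996 in the overexpression libraries, 0.145, 0.1995 and 0.130 in the *Δcra1* libraries, and 0.180, 0.342 and 0.372 in the control libraries. Overexpression replicates 1 and 3 and *Δcra1* replicates 1 and 3 were lower than every control library, and the strains overlapped. The mean log2 ratio was −2.95 ± 0.88 in the overexpression strain and −2.68 ± 0.32 in the *Δcra1* strain, and −1.82 ± 0.57 in the control strain (SD, n = 3). The overexpression strain differed from the control strain by −1.13 (exact two-sided permutation test, p = 0.2) and the *Δcra1* strain from the control strain by −0.86 (exact two-sided permutation test, p = 0.2). The overexpression strain differed from the *Δcra1* strain by −0.26 (exact two-sided permutation test, p = 0.7). Adjusted over these 3 tests, p was 0.3, 0.3 and 0.7 by the exact permutation test, where 3 libraries against 3 cannot go below 0.1.

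Other ratios within a library are given without a test. *THI20* exceeded *THI7* in TPM in overexpression replicates 1 and 3, at 1.52 and 1.77 times its level, and was lower in the other 7 libraries. *THI11* relative to *THI4* was 0.694 to 0.762 in the overexpression libraries, 0.596 to 0.950 in the *Δcra1* libraries and 0.901 to 1.20 in the control libraries. All overexpression libraries were thus lower in this ratio than the control libraries.

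The enzymes that use thiamine diphosphate were taken from the study's list of genes past its cutoffs in at least 1 comparison. They are therefore chosen for change in these libraries, and their counts are a description. Of the 6 genes, 5 were tested between the overexpression and control strains, where 7.15% of all genes tested were called higher. Of these 5, 3 were called higher. These were *PDC1*, pyruvate decarboxylase, with a log2 fold change of 2.16, *TKL1*, transketolase, with 2.06, and *ARO10-2*, named after a decarboxylase of aromatic keto acids, with 3.82. *ARO10-2* had 56, 40 and 49 counts in the overexpression libraries and 3, 2 and 3 counts in the control libraries. It passed the filter on low counts only through the overexpression libraries, so that it could be called in no direction other than higher. Its share of counts was 12.5 times as large, with a 95% counting interval of 6.20 to 29.6. *PDA1* and *PDB1*, the alpha and beta subunits of pyruvate dehydrogenase E1, stood at 1.43 and 1.61 on the log2 scale without a call, and became called in 1 and 4 of 13 alternative settings. *ILV2*, acetolactate synthase, did not pass the filter on low counts. It had 92.2, 23.9 and 54.8 TPM in the overexpression libraries and 13.5, 17.2 and 17.1 TPM in the control libraries, without overlap.

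The same enzymes were not called in the *Δcra1* strain against the control strain, where 3 of 6 passed the filter. Over all genes tested there, 8.4% were called lower and 13.2% higher. *PDC1* had 328.5, 339 and 398 CPM in the *Δcra1* libraries, against 854, 603 and 672 CPM in the control libraries. Its log2 fold change of −0.90 had an edgeR adjusted p of 0.00011 and missed the fold cutoff. *PDA1* was at −0.94 (edgeR adjusted p = 0.030) and also missed the fold cutoff alone, and *TKL1* was at −0.50 (edgeR adjusted p = 0.23). The median of these 3 was −0.90, against −1.98 for the 4 thiamine genes, and it leaves out *PDB1*, *ILV2* and *ARO10-2*, which were not tested. Of the genes left out, *PDB1* had 9.73, 24.2 and 22.6 TPM in the *Δcra1* libraries and 52.2, 67.8 and 42.0 TPM in the control libraries, without overlap. The strains overlapped in TPM for *ILV2* and *ARO10-2*. *PDC1* became called in 3 and *PDA1* in 2 of 13 alternative settings. Between the overexpression and *Δcra1* strains 6 of 6 were called higher, at 1.71 to 3.65, against 9.22% of all genes tested. *PDB1* had 3, 8 and 7 counts and *ARO10-2* 7, 5 and 5 counts in the *Δcra1* libraries. These genes passed the filter only through the overexpression libraries, so that they could be called in no direction other than higher. Of the 6, *ILV2* lost its call in 6 and *PDA1* in 2 of 13 alternative settings. In the overexpression strain against the control strain, *PDC1* and *TKL1* each lost their call in 5 of 13.

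The remaining pyruvate dehydrogenase subunits do not bind the cofactor. *LAT1*, the acetyltransferase E2, was called higher in the overexpression strain than in the control strain at 1.78, and lower in the *Δcra1* strain than in the control strain at −1.28. *PDX1*, the E3-binding protein, was at 0.96 and −0.57 in these comparisons and called in neither. *LPD1*, the dehydrogenase E3, was tested only in the *Δcra1* strain against the control strain, at 0.29, and in the overexpression strain against the *Δcra1* strain. In that last comparison 3 of 3 were called higher, against 9.22% of all genes tested. Of the 3, *LPD1* lost its call in 5 and *PDX1* in 4 of 13 alternative settings. *LAT1* lost its call in 5 of 13 alternative settings for the overexpression strain against the control strain and in 8 of 13 for the *Δcra1* strain against the control strain.

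Vitamin B6 is a substrate of pyrimidine synthesis in *S. cerevisiae*, where pyridoxal phosphate supplies part of the pyrimidine ring. *SNZ3*, a subunit of pyridoxal phosphate synthase, had 1306, 322 and 905 TPM in the overexpression libraries, 60.9, 92.1 and 104 TPM in the *Δcra1* libraries, and 252, 161 and 266 TPM in the control libraries. It had the same order of strains and of overexpression replicates as *THI4*. Its log2 fold change was 2.13 in the overexpression strain against the control strain (SE 0.56, edgeR adjusted p = 0.049) and −1.57 in the *Δcra1* strain against the control strain (SE 0.30, edgeR adjusted p = 8.1e-05). The first of these calls was lost in 5 of 13 alternative settings and the second in 0.

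*TPN1*, named after the pyridoxine transporter, was called lower in the *Δcra1* strain than in the control strain at −2.35. In the overexpression strain against the control strain it was at 2.04 and missed the call at an edgeR adjusted p of 0.055, and it became called in 7 of 13 alternative settings. *PET18-1* was at −1.14 and called lower in the *Δcra1* strain, a call lost in 4 of 13 alternative settings, and at 1.57 and not called in the overexpression strain, where it became called in 4 of 13. *SNO1*, the partner of the synthase subunit that releases ammonia from glutamine, went another way in the *Δcra1* strain. It had 98.6, 131 and 127 CPM in the *Δcra1* libraries, against 58.9, 30.1 and 80.3 CPM in the control libraries, and was called higher at 1.16. This call was lost in 8 of 13 alternative settings. *SNO1* was not tested between the overexpression and control strains, since it did not pass the filter on low counts. It had 393, 95.2 and 127 CPM in the overexpression libraries, each above every control library. Of the 4 genes, 3 were thus called lower and 1 higher in the *Δcra1* strain, 1 of 3 tested was called higher in the overexpression strain against the control strain, and 3 of 4 were called higher in the overexpression strain against the *Δcra1* strain. Over all genes tested, 8.4% were called lower and 13.2% higher in the *Δcra1* strain against the control strain, and 7.15% and 9.22% were called higher in the other 2 comparisons. This list, too, was chosen with results known, and its counts are a description.

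**Figure D3:**
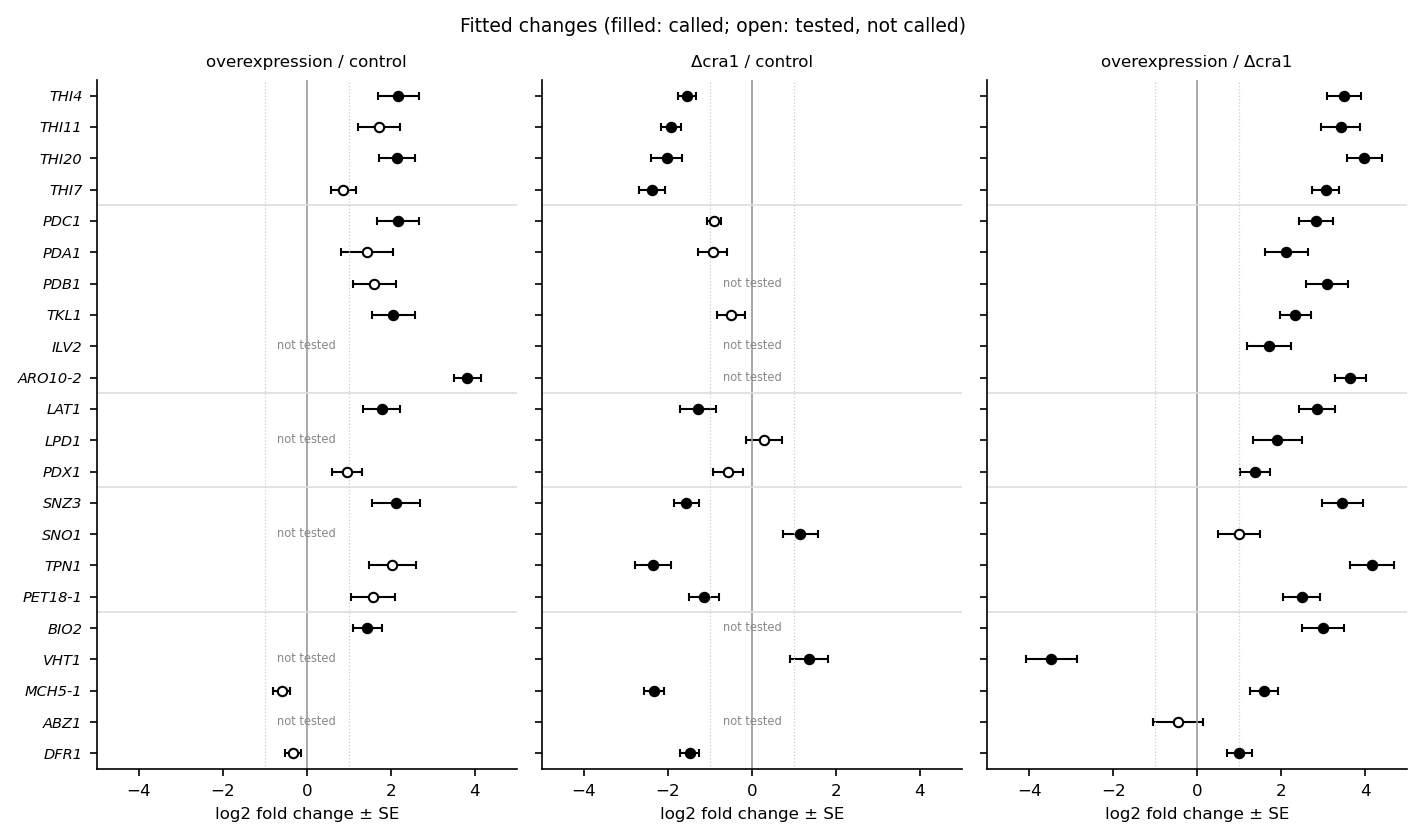
Fitted log2 fold changes with standard errors in the 3 comparisons, for the thiamine genes (top block), enzymes that use thiamine diphosphate, other pyruvate dehydrogenase subunits, vitamin B6 genes with *PET18-1*, and other vitamin genes (bottom block). Filled points were called, open points were tested and not called, and dotted lines mark a log2 fold change of 1 in size. The thiamine genes are filled in the middle and right panels, and 2 of 4 in the left.

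Genes for other vitamins did not share one direction. *MCH5-1*, named after a riboflavin transporter, and *DFR1*, dihydrofolate reductase, were called lower in the *Δcra1* strain than in the control strain, at −2.33 and −1.49, but were at −0.60 and −0.33 in the overexpression strain against the control strain, without a call. Both were called higher in the overexpression strain than in the *Δcra1* strain, at 1.59 for *MCH5-1* and 1.01 for *DFR1*, the second a call lost in 9 of 13 alternative settings. *BIO2*, biotin synthase, was called higher in the overexpression strain than in the control strain at 1.44, a call lost in 7 of 13 alternative settings, and was also called higher than in the *Δcra1* strain. *VHT1*, the biotin uptake gene, was called higher in the *Δcra1* strain than in the control strain at 1.36, a call lost in 8 of 10 alternative settings. It had 1 count in each overexpression library and 18, 16 and 20 counts in the *Δcra1* libraries. Its share of counts in the overexpression strain was 0.0744 times that in the *Δcra1* strain, with a 95% counting interval of 0.0149 to 0.229. *ABZ1*, of folate synthesis, was tested only between these strains and not called at −0.45. The control strain had just 2 counts of *ABZ1* in total, the *Δcra1* strain 39 and the overexpression strain 20. Relative to the control strain, its share was 10.1 times as large in the *Δcra1* strain (95% counting interval 2.61 to 86.1), without overlap in TPM. For the overexpression strain this ratio was 6.92 (95% counting interval 1.68 to 61.1), and TPM values overlapped. Such intervals cover counting error only.

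The sequences next to the thiamine genes in the numbering were looked at because *THI7* and *THI4* carry neighbouring identifiers. Within 2 positions on either side lie 12 other sequences, of which 3 to 7 passed the filter on low counts, depending on the comparison. Over all genes tested, 7.15% were called higher and 0.806% lower between the overexpression and control strains. Of the neighbours, 3 were tested there and 0 were called in edgeR, with log2 fold changes of −0.18 to 0.45. Of these, 1 had an unadjusted p under 0.05, *DAK2* at 0.45 (edgeR adjusted p = 0.075). Between the *Δcra1* and control strains 4 were tested and 2 called, where 8.4% of all genes tested were called lower and 13.2% higher. *DAK2*, dihydroxyacetone kinase, next after *THI20*, had 479, 402 and 426 CPM in the *Δcra1* libraries and 1217, 1246 and 1335 CPM in the control libraries, and was called lower at −1.45 (SE 0.13, edgeR adjusted p = 2.1e-10). *PLD1*, 2 positions after *THI4*, was called higher, with 15, 19 and 29 counts in the *Δcra1* libraries and 1 count in each control library. Its share of counts was 10.8 times as large, with a 95% counting interval of 3.55 to 54.0. Between the overexpression and *Δcra1* strains 7 were tested, with *DAK2* called higher at 1.76 and *PLD1* called lower at −1.95. In that comparison 9.22% of all genes tested were called higher and 5.63% lower. Distances in bases, shared promoters and orientation were not analysed here.

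Likeness of profile was measured as the root mean square distance, over the 9 libraries, between a gene's log2(CPM + 1) values centred on their own mean and the mean profile of the 4 thiamine genes. Among the 4 genes themselves, *THI11* was at 0.21, *THI20* at 0.26, *THI4* at 0.27 and *THI7* at 0.47 from that mean. Each of the 4 is itself part of that mean, which shortens its distance. These values therefore cannot be set beside those of other genes. The distance between *THI4* and *THI11* was 0.30, that between *THI20* and *THI11* 0.35 and that between *THI20* and *THI4* 0.36. *THI7* was at 0.61 to 0.69 from the other 3.

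Of the 1309 other genes that averaged 30 counts or more, the closest was *SNZ3* at 0.35. *PDC1* followed at 0.50, the eGFP reporter at 0.52, *PRE8*, a subunit of the proteasome core, at 0.55, and *TDH3*, glyceraldehyde-3-phosphate dehydrogenase, at 0.55. The reporter was called higher in the overexpression strain than in the control strain at 1.58 and lower in the *Δcra1* strain than in the control strain at −2.06, and *TDH3* likewise at 2.49 and −2.54. The reporter's calls were lost in 3 and 1 of 13 alternative settings. *PRE8* was called lower in the *Δcra1* strain at −2.57, and was at 0.79 without a call in the overexpression strain against the control strain (edgeR adjusted p = 0.070). The median distance of all 1309 genes was 1.54. *TKL1* ranked 26 and *PDA1* 34, at 0.75 and 0.81. *CRA1* ranked 1303 at 3.14, since its range was far wider than that of the thiamine genes. The 9 libraries share their depth, scaling and strain differences across all genes, so that these distances describe the libraries and are given with no test.

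**Figure D4:**
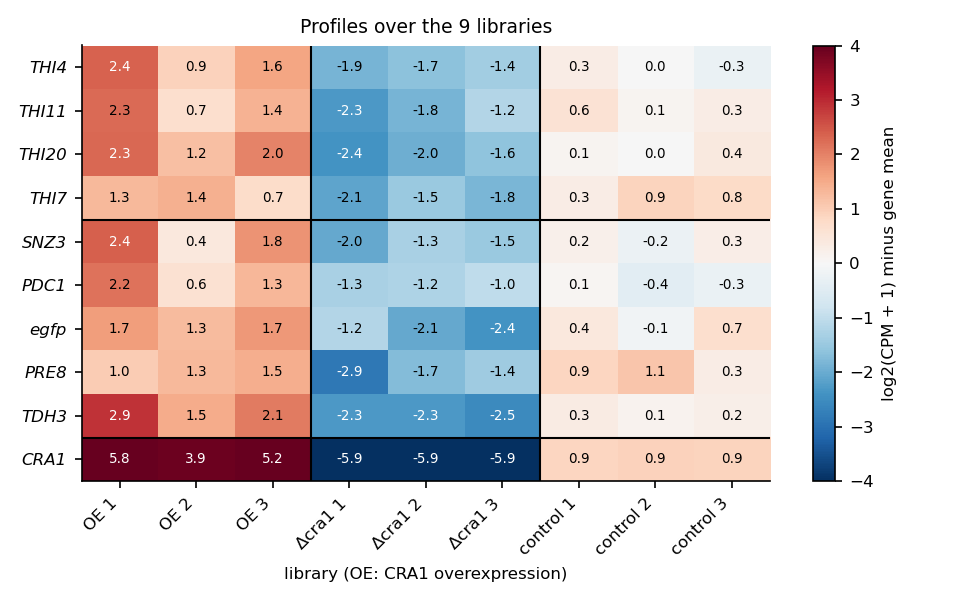
Profiles of the 4 thiamine genes (top), the 5 genes closest to their mean profile (middle) and *CRA1* (bottom) over the 9 libraries. Each cell gives log2(CPM + 1) minus the gene's own mean over the libraries, in red above and in blue below that mean, with colours ending at 4 in size. *THI4*, *THI11*, *THI20* and *SNZ3* are highest in overexpression replicate 1 and lowest in the *Δcra1* libraries, and *THI7* is highest in overexpression replicate 2.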

How the data were processed

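Poly(A)-enriched RNA from 9 cultures was sequenced on an Illumina HiSeq v4. The submitters' processing notes name SAMtools 1.5, Picard 2.17.3-3, FastQC 0.11.2, Trim Galore 0.4.2, kallisto 0.44.0 and DESeq2. The authors assigned the reads with kallisto to CBS7435 transcripts and deposited, for each library, estimated counts without normalization. The deposited TPM values are those counts divided by effective length and scaled to a constant sum per library, by kallisto. The authors' tables of normalized counts were not used.

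Estimated counts were rounded to whole numbers. edgeR 4.0.16 (R 4.3.3) was fitted for each pair of strains on the 6 libraries concerned (filterByExpr, TMM factors, quasi-likelihood test, Benjamini-Hochberg adjustment over all genes tested). The filter keeps a gene that is high enough in 3 libraries, so a gene low in one strain can pass through the other strain alone. *THI20* passed in this way in the comparisons with the *Δcra1* strain. Calls used the study's cutoffs, an adjusted p under 0.05 and an absolute log2 fold change of at least 1. Ratios were tested with exact permutation tests written in Python 3.11.15 with numpy 2.4.6. The 95% counting intervals of count shares came from exact binomial intervals in scipy 1.17.1. Alternatives were RLE factors, no filter, DESeq2 1.42.0 without and with length offsets, 1 fit over all 9 libraries, the replicate number as a block, the component score as a covariate (chosen by an earlier analysis after values were seen), counts in place of TPM for the ratio, and each library left out in turn. Depth was 106345 to 223824 counts per library, which limits the precision of genes such as *THI20*.

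The thiamine genes and the gene lists were chosen with earlier results of these data known. Genes named are the members of these lists, *CRA1* and eGFP, neighbours by identifier with a name or a call, and the 5 genes of most similar profile. Groups and replicate numbers follow the sample labels.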

Additional observations from a re-analysis of the deposited data

How the results depend on the processing

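The calls of all 4 thiamine genes in the *Δcra1* strain against the control strain, and in the overexpression strain against the *Δcra1* strain, held in each of 13 alternative settings. Between the overexpression and control strains, *THI11* became called without the filter on low counts (log2 fold change 1.34), with DESeq2 (1.35), with DESeq2 and length offsets (1.35), in 1 fit over all 9 libraries (1.58) and with the replicate block (1.498), and its adjusted p ranged from 0.00093 to 0.26 over the alternatives. *THI4* fell below the fold cutoff with the component covariate (0.93), which left 1 thiamine gene called. With 1 library left out, 0 to 3 thiamine genes were called, and log2 fold changes ranged from 1.44 to 2.45 for *THI4*, 0.91 to 2.00 for *THI11*, 1.65 to 2.40 for *THI20* and 0.56 to 1.08 for *THI7*, which was called in no setting. Over all genes, 158 were called between the overexpression and control strains, against 414 without the filter, 363 in the 9-library fit, 292 with the replicate block and 44 to 574 with 1 library left out (44 without control replicate 2, 574 without overexpression replicate 2). Between the *Δcra1* and control strains 516 were called, and 292 with the component covariate. Between the overexpression and *Δcra1* strains 456 were called, and 266 to 777 with 1 library left out (280 and 266 without *Δcra1* replicates 2 and 3, 777 without overexpression replicate 2). The median log2 fold change of all genes between the overexpression and control strains was 0.03, against 0.31 without the filter and −0.14 with DESeq2, over other sets of genes. Deviations from the strain means over 1313 genes were correlated between libraries of the same replicate number. The correlations were 0.31, 0.26 and 0.088 for the overexpression and control strains. They were −0.20, −0.053 and −0.094 for the *Δcra1* and control strains, and −0.49, −0.21 and −0.038 for the overexpression and *Δcra1* strains. In the first of these pairs of strains each library correlated best with its own number, and in the others every same-number value was negative. Whether the numbers pair the cultures was therefore not decided. The block called 503 genes between the *Δcra1* and control strains and 364 between the overexpression and *Δcra1* strains, and moved no other thiamine call. The difference in the log2 ratio of *THI7* to *THI4* between the overexpression and *Δcra1* strains, −0.26, ranged from −0.77 to 0.051 with 1 library left out, turning positive without overexpression replicate 1. Also reversed were *PDA1* between the overexpression and control strains (−0.23 with the covariate), *LPD1* between the *Δcra1* and control strains (−0.031 with the covariate) and *SNO1* between the overexpression and *Δcra1* strains (−0.051 without overexpression replicate 1, and up to 1.30 with another library left out). The cause of these changes was not tested. Among the 4 thiamine genes, *THI20* and *THI7* had the lowest counts in the *Δcra1* strain, at 6 to 12 and 10 to 15 counts per library.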
